A study of Rattus norvegicus with 2 samples.

Results

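Interleukin 1 beta and interleukin 1 alpha are early signals of inflammation, and an inflammasome is the protein assembly that cuts interleukin 1 beta and interleukin 18 into their active forms. The genes described here are the ligands Il1b, Il1a and Il18, the antagonist Il1rn, the receptors Il1r1 and Il1r2, and the inflammasome genes Nlrp3, Pycard, Casp1 and Gsdmd, 10 of the 42172 genes listed in the count matrices of a rat lung single-cell study. They were taken by symbol, and all 10 had UMIs (unique molecular identifiers, each standing for 1 captured RNA molecule) in both libraries. Lung cells of unexposed control rats and of rats that went through a gas explosion, all Rattus norvegicus and kept free of specific pathogens, were profiled with 10x Chromium 3' chemistry to see how lung cells vary with the exposure. The control library is titled C3 and the explosion library D4, and each group has only that 1 library. Strain, age, the interval between blast and sampling and the number of animals in a library are not stated in the labels. Differences between the libraries were therefore not tested, and the values in parentheses are exact 95% intervals that cover counting error only.

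Interleukin 1 alpha and beta act through the receptor Il1r1. Il1rn encodes a secreted antagonist that occupies the same receptor, and Il1r2 is a decoy that binds interleukin 1 without signalling. In the inflammasome the sensor NLRP3 and the adaptor ASC, the product of Pycard, recruit caspase 1. Caspase 1 cuts the precursors of interleukin 1 beta and interleukin 18, and also gasdermin D (Gsdmd), whose fragment opens pores in the cell membrane. Monocytes, macrophages and neutrophils are well-known sources of interleukin 1 beta. RNA levels do not measure cutting or release.

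The DNA at the starts of these genes was taken from RefSeq (assembly GRCr8), which held a window of 300 bases, 250 before to 50 after the annotated start, for 8 of the 10 (no match for Il1r2 and Gsdmd). GRCr8 is not a build named for the counting, so no count was tied to these positions. Shown are Il1b and Il1rn, which stood above the median gene in the explosion library in every class where they were measured, and Il18 and Pycard, which stood below it. The Il1b window lies at chr3:137036532-137036831 on the minus strand and that of Il1rn at chr3:27520072-27520371 on the plus strand. The Il18 window lies at chr8:59801822-59802121 on the plus strand and that of Pycard at chr1:192033370-192033669 on the minus strand. Each is printed 5′ to 3′ on the gene's own strand, and capitals mark a match to TATAAA on either strand.
Il1b: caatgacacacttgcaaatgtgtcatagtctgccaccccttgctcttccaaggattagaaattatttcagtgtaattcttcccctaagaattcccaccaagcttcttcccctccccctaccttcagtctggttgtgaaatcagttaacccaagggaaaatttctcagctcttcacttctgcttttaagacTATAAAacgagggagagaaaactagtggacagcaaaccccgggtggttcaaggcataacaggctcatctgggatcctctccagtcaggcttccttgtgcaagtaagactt
Il1rn: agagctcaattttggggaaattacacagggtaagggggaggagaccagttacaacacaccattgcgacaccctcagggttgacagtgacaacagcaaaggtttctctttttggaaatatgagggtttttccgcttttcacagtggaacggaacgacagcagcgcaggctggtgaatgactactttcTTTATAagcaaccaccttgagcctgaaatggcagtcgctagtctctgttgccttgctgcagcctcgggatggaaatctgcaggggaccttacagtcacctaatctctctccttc
Il18: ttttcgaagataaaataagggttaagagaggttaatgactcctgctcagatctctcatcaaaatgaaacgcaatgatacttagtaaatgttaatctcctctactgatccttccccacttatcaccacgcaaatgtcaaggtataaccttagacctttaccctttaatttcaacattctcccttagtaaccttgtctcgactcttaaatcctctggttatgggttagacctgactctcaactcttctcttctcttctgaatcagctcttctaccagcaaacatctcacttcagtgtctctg
Pycard: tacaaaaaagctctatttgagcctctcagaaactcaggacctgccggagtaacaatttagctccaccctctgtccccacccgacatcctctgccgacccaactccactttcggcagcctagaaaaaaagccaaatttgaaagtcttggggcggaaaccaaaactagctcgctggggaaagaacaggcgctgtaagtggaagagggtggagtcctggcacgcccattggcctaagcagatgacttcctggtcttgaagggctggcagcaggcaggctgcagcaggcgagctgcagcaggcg
The Il1b window held TATAAA from position -60 and the Il1rn window held it on the opposite strand (read as TTTATA) from position -64, counted from the start. The Il1a window, not shown, held 1 match on each strand. Of 33469 windows of this length, 14.2% held TATAAA on either strand. The Il18 and Pycard windows held no match to the 4 motifs searched on both strands, which were TATAAA, the PU.1 core GAGGAA (in 27.6% of windows), the AP-1 site TGACTCA (4.63%) and the NF-kB consensus (7.51%). GAGGAA was found in the windows of Il1a (from -41), Nlrp3 (from -73) and Casp1 (from -166). TGACTCA was found in that of Il1a (from -12) and the NF-kB consensus in that of Il1r1 (from -135, read as GGAATGCCCC). A match describes letters in the window, not a binding site.

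The libraries differed widely in depth. The control library held 21117 barcodes with a median of 4917 UMIs, and the explosion library 12642 with a median of 538.5. After filtering, 19231 and 11845 cells remained, of which 0 and 5580 were below 500 UMIs. Scgb1a1, the main secretory product of club cells, took 24.1% of control and 5.94% of explosion UMIs. Clustering without the genes described here gave 27 clusters, of which 4 stayed unnamed and the others fell into 13 classes named from markers. Levels are UMIs of a gene per 1000000 UMIs of the class (CPM), given for classes of at least 50 cells. In the 8 classes with 200 cells or more in both libraries, the log2 ratio of explosion to control was centred on the median measured gene of the class, because that median was itself shifted by 0.46 (monocyte-like) to 1.52 (secretory-like).

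Most UMIs of 8 of these genes lay in myeloid cells in both libraries. The myeloid classes held 92.4% of control and 91.1% of explosion Il1b UMIs, and 92.9% and 88.5% of those of Il18. Which myeloid cells held them differed between the libraries. Macrophage-like cells made up 45.9% of kept control and 16.7% of kept explosion cells, whereas monocyte-like cells made up 6.68% and 32.5%. The part of all Il1b UMIs found in monocyte-like cells was 29.3% in the control and 81.9% in the explosion library, that of Nlrp3 4.86% and 44.7%, and that of Casp1 6.16% and 49.8%. Il1r1 had 67.3% and 77.6% of its UMIs in structural cells, and Gsdmd 65.2% and 45.3% in myeloid cells. Over all kept cells Pycard stood at 106 CPM in the control and 153 CPM in the explosion library, although it was lower in the explosion library within macrophage-, monocyte- and each of the lymphoid classes, as given below. In such sums over all cells, fewer cells of a type and less RNA per cell cannot be told apart, so the other levels are given within classes.

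**Figure D1:**
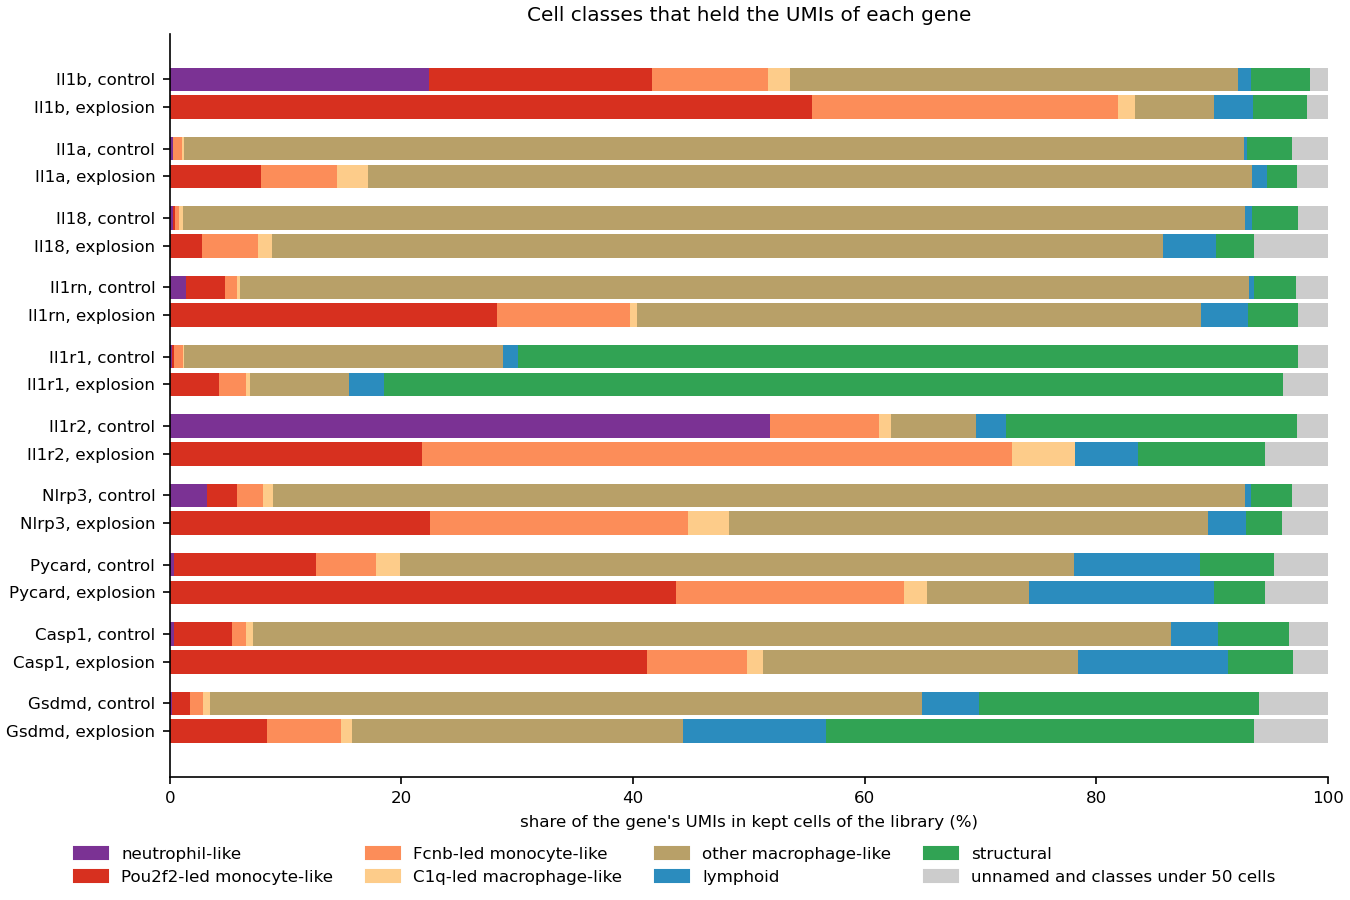
Share of each gene's UMIs in kept cells (percent, horizontal axis) held by each group of cells, with 1 bar for each gene and library. The monocyte-like share is larger in the explosion library for every gene, for Il1b 29.3% in the control and 81.9% in the explosion library.

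Some classes were divided after the clusters were seen. The Fcnb-led monocyte-like group (309 control and 941 explosion cells), in which ficolin B, class II genes and Ccr2 led, was 1 cluster in both libraries. The Pou2f2-led group (975 and 2909 cells) was held mostly by cluster 14 in the control, led by Mal, Srgn and Ly6c, and by cluster 25 in the explosion library, led by Pou2f2, Spn and Nos2. Macrophage-like cells comprised a small C1q-led group (125 and 176 cells) and a large group expressing Mrc1 and Fabp4 (8699 and 1805 cells), genes of alveolar macrophages. Clusters 2 and 3 held most of that large group in the control and cluster 8 in the explosion library. T-, B- and mesothelial-like cells were also held mostly by different clusters (4 and 22, 7 and 13, 10 and 16), so a comparison within these classes is also one between clusters. At a finer clustering (Leiden resolution 2) ciliated-like cells fell into clusters of 397 control and 1 explosion and of 155 and 244 cells. A cluster of 496 and 46 cells best matched by ciliated markers stayed unnamed, as secretory markers led. Another of 935 and 2 cells best matched by mesothelial markers stayed unnamed, as fibroblast markers led. The named mesothelial-like cluster held 151 and 978 cells.

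Il1b, the gene of interleukin 1 beta, had its highest control level in neutrophil-like cells, at 5271 CPM (5047 to 5502). These 305 cells held 22.4% of control Il1b UMIs, and the explosion library had 13 neutrophil-like cells, too few for a level. In Pou2f2-led monocyte-like cells Il1b stood at 1239 CPM (1183 to 1298) in the control and 2048 CPM (1963 to 2135) in the explosion library, 1.65-fold higher (1.55 to 1.76). In Fcnb-led cells it stood at 902 CPM (845 to 962) in the control and 1591 CPM (1496 to 1690.0) in the explosion library, 1.76-fold higher (1.61 to 1.93). In both groups the control interval lay wholly below the explosion interval, and the Pou2f2-led group was above the Fcnb-led group in each library. The Fcnb-led group was mixed: at Leiden resolution 2, 164 of its 309 control and 214 of its 941 explosion cells were conventional dendritic-like. In its monocyte-like remainder Il1b stood at 1547 CPM (1426 to 1674) in the control and 1871 CPM (1750.4 to 1998) in the explosion library, a smaller difference, and the control value was above that of the Pou2f2-led group. Set against the median gene the excess of the whole Pou2f2-led and Fcnb-led groups was small, 0.35 (0.26 to 0.44) and 0.26 (0.13 to 0.39) on the log2 scale, above 65.0% and 60.7% of the genes measured in each group. The median gene of the whole Fcnb-led group was shifted by 0.56. That shift was larger than the Il1b difference in its monocyte-like remainder, which was not set against a median gene of its own.

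The share of cells in which Il1b was seen had the same order. After thinning each cell to 500 UMIs, the share of Pou2f2-led cells with at least 1 Il1b UMI was 30.9% (28.0% to 33.9%) in the control and 54.6% (49.1% to 60.0%) in the explosion library, and that of Fcnb-led cells 26.2% (21.4% to 31.5%) and 45.5% (41.8% to 49.3%). Thinning left out 2570 of the 2909 explosion Pou2f2-led cells, whose median depth was 334 UMIs against 1442 in the control. Without thinning the order was the opposite, with 51.5% of control and 44.7% of explosion monocyte-like cells holding Il1b. T-like cells, a lymphoid class that makes little interleukin 1 beta, had thinned shares of 0.703% and 2.19% with 1836 and 427.5 UMIs in the median cell, far below both monocyte groups in each library.

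In C1q-led macrophage-like cells Il1b stood at 433 CPM (371 to 502) in the control and 619 CPM (471 to 798) in the explosion library, with intervals that overlapped. In Mrc1- and Fabp4-led cells it was lower, 66.2 CPM (64.1 to 68.4) in the control and 128 CPM (113 to 144) in the explosion library. The explosion value of that group overlapped the 123 CPM (88.0 to 166) of NK-like cells in the same library. Control Il1b in the Mrc1- and Fabp4-led group was concentrated in few cells: 210 of 8699 cells held 5 or more UMIs and together 53.5% of the group's Il1b. The explosion library had 2 such cells of 1805, at a median depth of 1153 UMIs against 5834. Within cluster 8, the macrophage cluster with the most explosion cells (429 control and 1698 explosion cells), Il1b stood at 11.1 CPM in the control and 118 CPM in the explosion library, from 12 and 232 UMIs, a larger difference than over the whole group.

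**Figure D2:**
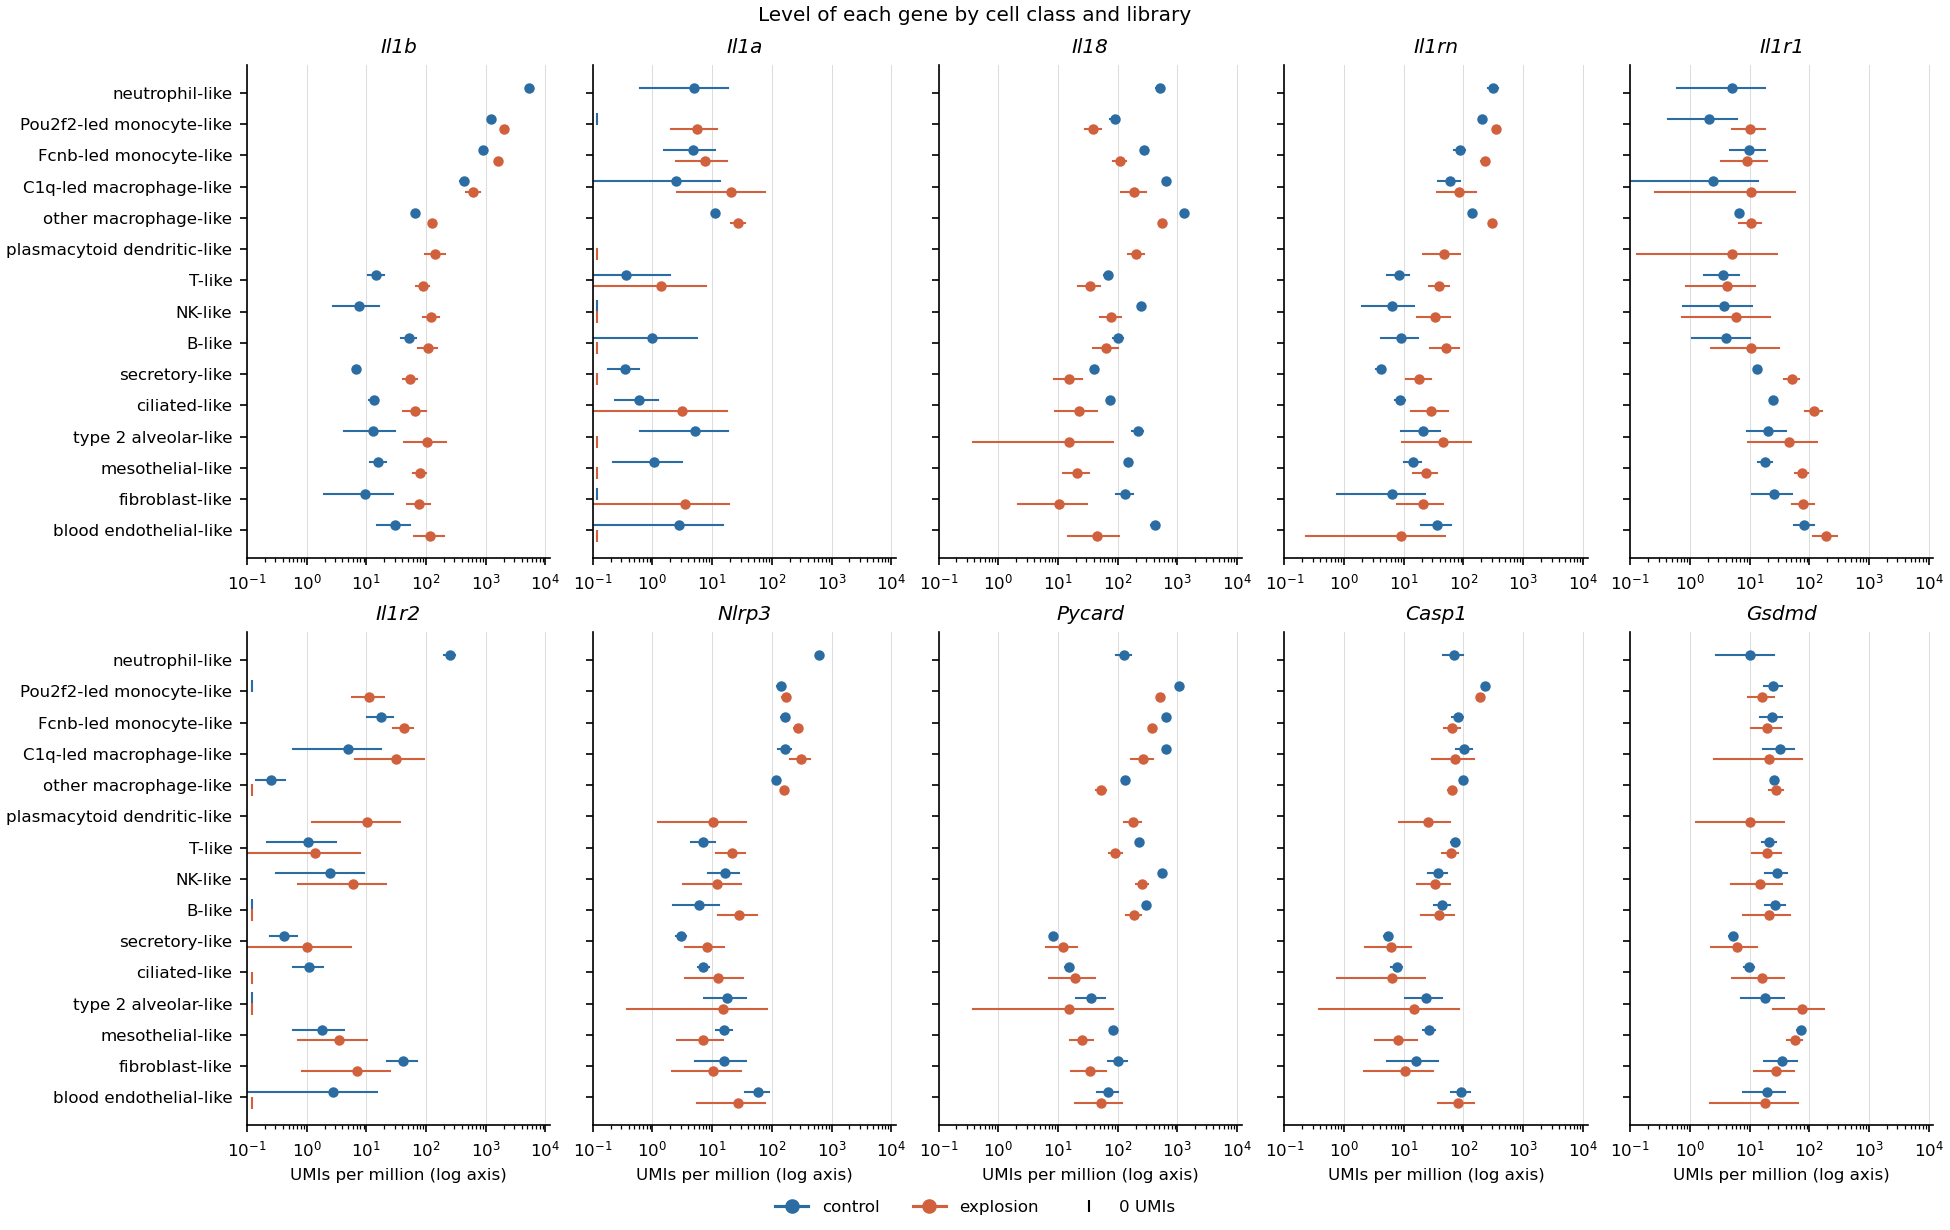
Level of each gene in CPM (log horizontal axis) by cell class and library; points are the summed level of a class, bars its exact 95% Poisson interval and ticks at the left edge 0 UMIs. Il1b is highest in control neutrophil-like cells at 5271, and Il18 in control Mrc1- and Fabp4-led cells (drawn as other macrophage-like) at 1314.

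Il1a, the gene of interleukin 1 alpha, was sparse and found mainly in macrophages, with 677 UMIs in control and 76 in explosion cells. In Mrc1- and Fabp4-led cells it stood at 11.4 CPM (10.5 to 12.3) in the control and 27.5 CPM (20.9 to 35.6) in the explosion library, 2.42-fold higher (1.82 to 3.17). That group held 91.6% of control and 76.3% of explosion Il1a UMIs. Its difference from the median gene, 0.68 (0.25 to 1.06), was short of 2-fold. Monocyte-like cells gave 5 control and 11 explosion UMIs, so the cells richest in Il1b in the explosion library held little Il1a.

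Il18, the gene of interleukin 18, was highest in macrophages in both libraries. Mrc1- and Fabp4-led cells stood at 1314 CPM (1304 to 1324) in the control and 544 CPM (513 to 577) in the explosion library, 2.41-fold lower (2.28 to 2.56) in the latter. Set against the median gene this was -1.88 (-1.97 to -1.80), and only 4.65% of the genes measured there were lower. The thinned share of these cells with an Il18 UMI was 46.0% (45.0% to 47.1%) in the control and 24.3% (22.3% to 26.5%) in the explosion library, against 3.65% and 1.53% of T-like cells. C1q-led cells had the same direction, with 647 CPM (571 to 729.8) in the control and 189 CPM (112 to 298) in the explosion library. Fcnb-led monocyte-like cells had 279 CPM (248 to 314) and 108 CPM (84.2 to 136), and Pou2f2-led cells 89.6 CPM (74.9 to 106) and 39.2 CPM (28.2 to 52.9). In all 4 of these groups the control interval lay wholly above the explosion interval. In the monocyte-like remainder of the Fcnb-led group at resolution 2 the intervals overlapped, at 93.5 CPM (65.8 to 129) and 61.0 CPM (40.8 to 87.6).

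Il18 was also lower in the explosion library in each lymphoid and structural class compared. NK-like cells had 250.0 CPM (217 to 287) in the control and 77.8 CPM (50.8 to 114) in the explosion library, and mesothelial-like cells, the lining of the lung surface, 149.5 CPM (136 to 165) and 20.8 CPM (12.3 to 32.9). T-, B-, secretory- and ciliated-like cells were lower by 1.58-fold to 3.35-fold, and of these the interval of B-like cells (0.954 to 2.78) took in no difference. UMIs of macrophage markers were present in all 6 classes. Of 18 macrophage markers 13 to 16 had UMIs in each, in sum 160.4 to 654 CPM in the control and 192 to 727 CPM in the explosion library, against 5551 and 8043 CPM in macrophage-like cells. Marco had no UMI in any kept cell of either library, macrophage-like cells included, and of the other markers Cd163, Ms4a7, Folr2, Stab1, Siglec1 and Pparg were at 0 in some. Per 100 macrophage-marker UMIs, macrophage-like cells held 23.6 Il18 UMIs in the control and 6.58 in the explosion library. The interval of that ratio took in the macrophage value in 5 of the 6 classes in each library, with 22.9 (20.5 to 25.5) and 6.98 (4.07 to 11.2) in mesothelial-like cells. NK-like cells held more, at 65.1 (54.2 to 78.1) and 17.3 (11.0 to 26.4). In T-, B- and NK-like cells the leading marker of the list was Abcg1, at 19.2% to 27.6% of the sum. The part of macrophage RNA in the Il18 of these classes was not tested.

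Il1rn, the receptor antagonist, was higher in the explosion library in macrophage- and monocyte-like cells. Mrc1- and Fabp4-led cells stood at 140.4 CPM (137 to 144) in the control and 306 CPM (282 to 330.2) in the explosion library, and their thinned share with an Il1rn UMI was 6.08% (5.59% to 6.60%) and 13.1% (11.5% to 14.8%). Pou2f2-led monocyte-like cells stood at 202 CPM (179.6 to 227) and 348 CPM (313 to 385). Fcnb-led cells had 87.3 CPM (70.2 to 107) and 229 CPM (194 to 269), 2.63-fold higher (2.01 to 3.45). In these 3 groups no control interval overlapped its explosion interval. Set against the median gene the differences were 0.51 (0.39 to 0.63), 0.41 (0.18 to 0.63) and 0.83 (0.45 to 1.23), so none reached 2-fold. T-like cells had 23 control and 28 explosion UMIs, 8.21 CPM (5.21 to 12.3) and 39.5 CPM (26.3 to 57.1), which was past 2-fold at 1.57 (0.73 to 2.44) but changed sign to -0.43 when called doublets were kept.

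A ratio of UMIs of 2 genes in the same cells needs no scaling between libraries, although it is no ratio of proteins. In macrophage-like cells the ratio of Il1rn to Il1b UMIs was 2.03 in the control and 1.99 in the explosion library, a change of 0.980-fold (0.852 to 1.13). In monocyte-like cells it was 0.140 in the control and 0.162 in the explosion library, a change of 1.15-fold (0.997 to 1.33). Both intervals took in no change. Over macrophage-like cells this compares different clusters, and within cluster 8 alone there were 156 Il1rn and 12 Il1b UMIs in the control against 612 and 232 in the explosion library, so there the antagonist was lower relative to Il1b. Fcnb-led cells taken alone gave 0.0968 in the control and 0.144 in the explosion library, a change of 1.49-fold (1.12 to 1.99). Il18 per Il1b was 19.0 in the control and 3.55 in the explosion library in macrophage-like cells, 5.35-fold lower (4.70 to 6.08). In monocyte-like cells it was 0.153 in the control and 0.0348 in the explosion library, 4.40-fold lower (3.54 to 5.50).

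**Figure D3:**
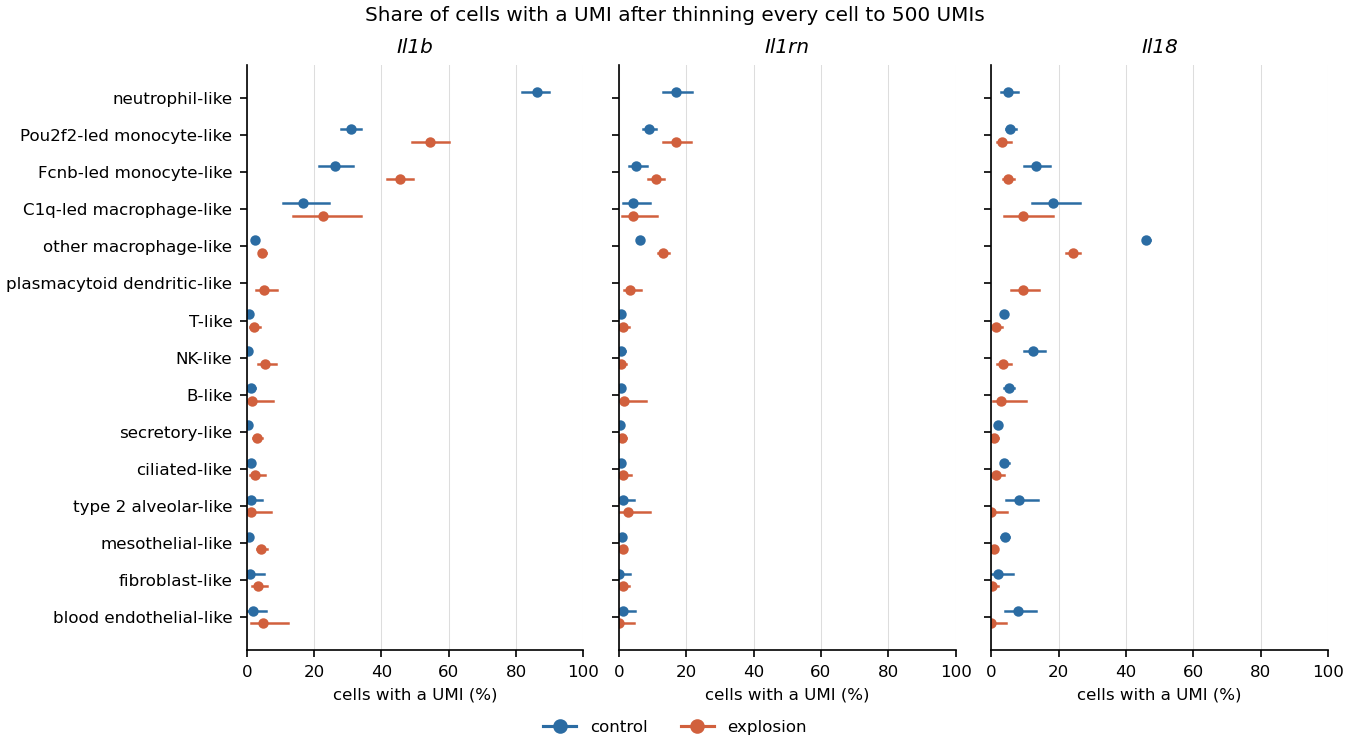
Percent of cells with at least 1 UMI of Il1b, Il1rn or Il18 (horizontal axis) after each cell was thinned to 500 UMIs, by class and library, with Clopper-Pearson 95% intervals as bars. Il1b and Il1rn lie further right in the explosion library in both monocyte-like groups, Il1b at 54.6% of Pou2f2-led cells, and Il18 lies further left.

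Il1r1, the signalling receptor of interleukin 1, was highest in blood endothelial-like cells, at 83.0 CPM (56.0 to 119) in the control and 188 CPM (116 to 287) in the explosion library. These intervals overlapped, and the class had too few cells for further comparison. Ciliated-like cells stood at 24.8 CPM (22.0 to 27.8) and 121 CPM (85.4 to 166), 4.87-fold higher (3.38 to 6.85) in the explosion library. Mesothelial-like cells stood at 18.3 CPM (13.6 to 24.0) and 75.2 CPM (58.0 to 95.8), 4.11-fold higher (2.81 to 6.05). Secretory-like cells gave 13.2 CPM (12.0 to 14.4) and 51.5 CPM (38.4 to 67.7). In the latter 3 classes no control interval overlapped its explosion interval. Set against the median gene the differences were 1.33 (0.78 to 1.80), 1.53 (0.98 to 2.09) and 0.46 (0.01 to 0.87), so ciliated- and mesothelial-like cells passed 2-fold and secretory-like cells did not. Most control and most explosion cells of the ciliated- and mesothelial-like classes lay in different clusters at Leiden resolution 2, as given above. The thinned share with an Il1r1 UMI was 1.34% (0.734% to 2.24%) and 8.02% (4.90% to 12.2%) in ciliated-like cells (median depths 4811.5 and 853 UMIs), against 0.0703% and 0.438% in T-like cells. The lymphoid classes of the explosion library had 4.23 to 10.7 CPM, below each of these structural classes.

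Il1r2, the decoy receptor, was highest in neutrophil-like cells in the control, at 250.3 CPM (203 to 305) with 99 of the 191 control UMIs. Monocyte-like cells had 18 control and 40 explosion UMIs, 7.26 CPM (4.30 to 11.5) and 23.1 CPM (16.5 to 31.5). That was 3.19-fold higher (1.78 to 5.90), or 1.19 (0.38 to 2.10) relative to the median gene. Fcnb-led cells held 18 and 28 of these UMIs. At resolution 2, 16 of them in the control and 16 in the explosion library lay in conventional dendritic-like cells, and 2 and 12 in monocyte-like cells, so most of the control Il1r2 of this class was not in monocyte-like cells at that resolution. Pou2f2-led cells held 0 UMIs in the control, where 3 counts would be 2.07 CPM, and 12 in the explosion library (11.2 CPM). Mrc1- and Fabp4-led macrophage-like cells held 14 UMIs in 8699 control cells and 0 in 1805 explosion cells, where 3 counts would be 1.42 CPM. Outside the monocytes Il1r2 was too sparse to be measured in any compared class. Fibroblast-like cells, too few in the control to be compared (107 control and 429 explosion cells), had 13 and 2 UMIs, 41.6 and 6.94 CPM.

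Nlrp3, the sensor, was found mainly in neutrophil-, monocyte- and macrophage-like cells and was highest in control neutrophil-like cells at 629 CPM (554 to 713). Explosion plasmacytoid dendritic-like cells had 2 UMIs, and control blood endothelial-like cells 21 (58.1 CPM). Conventional dendritic-like cells at resolution 2 had 110 and 125 CPM in the control and explosion library. T-like cells had 7.14 CPM (4.36 to 11.0) and 21.2 CPM (11.9 to 34.9), or 0.89 relative to the median gene, short of 2-fold. Pou2f2-led monocyte-like cells had 142 CPM (123 to 163) in the control and 169.7 CPM (146 to 196) in the explosion library, and Fcnb-led cells 168 CPM (144 to 195) and 273 CPM (235 to 316). Mrc1- and Fabp4-led macrophage-like cells had 119.9 CPM (117 to 123) and 158 CPM (142 to 176). Set against the median gene these were -0.12 (-0.41 to 0.18), 0.15 (-0.16 to 0.46) and -0.21 (-0.37 to -0.05), so Nlrp3 lay near the middle of the measured genes in all 3 groups, and its higher plain CPM turned to a value below the median gene in the Pou2f2-led and the macrophage-like cells. The thinned shares of cells with Nlrp3 were 6.05% and 7.08%, 11.0% and 10.8%, and 6.04% and 6.91%, with overlapping intervals in each group. In the monocyte-like remainder of the Fcnb-led group at resolution 2 the levels were 248 CPM (201 to 302) and 328 CPM (279 to 384), with intervals that overlapped.

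Pycard, the gene of the adaptor ASC, was lower in the explosion library in myeloid and lymphoid cells alike. Pou2f2-led monocyte-like cells had 1068 CPM (1016 to 1123) in the control and 520.3 CPM (478 to 565) in the explosion library, 2.05-fold lower (1.86 to 2.27), and their thinned share with a Pycard UMI was 39.6% (36.5% to 42.7%) and 18.6% (14.6% to 23.1%). Fcnb-led cells had 641 CPM (593 to 692) and 383 CPM (337 to 433). Mrc1- and Fabp4-led macrophage-like cells had 135 CPM (132 to 138) and 53.6 CPM (44.2 to 64.5), 2.52-fold lower (2.09 to 3.06). The lymphoid classes held more Pycard than these macrophages did in each library. NK-like cells had 564 CPM (513 to 618) and 257 CPM (206 to 318), T-like cells 224 CPM (207 to 243) and 91.7 CPM (70.8 to 117) and B-like cells 301 CPM (268 to 337) and 186 CPM (139 to 244). In each of these 6 groups the control interval lay wholly above the explosion interval.

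Casp1, which encodes the protease, differed less in its CPM. Pou2f2-led monocyte-like cells had the highest level, 232 CPM (208 to 258) in the control and 192 CPM (167 to 220.2) in the explosion library, which was -0.64 (-0.90 to -0.39) relative to the median gene. Mrc1- and Fabp4-led cells had 98.5 CPM (95.9 to 101) and 64.5 CPM (54.1 to 76.3), and T-like cells 72.1 CPM (62.5 to 82.8) and 60.7 CPM (43.9 to 81.8). The ratio of the former, -1.22 (-1.48 to -0.98), passed 2-fold and that of T-like cells, -0.93 (-1.45 to -0.46), did not. Mesothelial-like cells had 75 control and 7 explosion UMIs, 26.9 CPM (21.2 to 33.7) and 8.10 CPM (3.26 to 16.7). In all 6 classes where Casp1 was measured its CPM was lower in the explosion library.

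Gsdmd, the gene of the pore protein, was low in all classes compared. Mesothelial-like cells had 72.1 CPM (62.5 to 82.8) in the control and 56.7 CPM (41.9 to 74.9) in the explosion library. Mrc1- and Fabp4-led macrophage-like cells had 25.3 CPM (24.0 to 26.7) and 27.5 CPM (20.9 to 35.6), and monocyte-like cells 24.2 CPM (18.5 to 31.1) and 17.3 CPM (11.7 to 24.7). These intervals overlapped between the libraries in each class. Relative to the median gene Gsdmd stood between -0.93 and -0.52 in the 4 classes where it was measured, macrophage-like cells included, where its plain CPM was slightly higher. Pou2f2-led monocyte-like cells taken alone had 36 and 17 UMIs, 24.8 CPM (17.4 to 34.4) and 15.9 CPM (9.23 to 25.4), with overlapping intervals. There Gsdmd was at least 2-fold below the median gene, as were 17.5% of all measured genes.

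The sensor and its partners thus stood in different proportion in the libraries. Nlrp3 per Pycard UMI was 0.866 in the control and 2.63 in the explosion library in macrophage-like cells, a change of 3.04-fold (2.48 to 3.73). In monocyte-like cells it was 0.171 in the control and 0.447 in the explosion library, a change of 2.61-fold (2.20 to 3.08). Within the Pou2f2-led and the Fcnb-led group the change was 2.45-fold (1.95 to 3.08) and 2.73-fold (2.10 to 3.55). T-like cells, with 20 control and 15 explosion Nlrp3 UMIs, had a change of 7.21-fold (3.27 to 15.6). Their Nlrp3 level was low, 7.14 and 21.2 CPM, and the part of myeloid RNA in it was not tested. In ciliated-, mesothelial- and secretory-like cells the intervals of this change took in no change. Nlrp3 per Casp1 changed by 2.08-fold (1.70 to 2.55) in macrophage-like and 1.60-fold (1.29 to 2.00) in monocyte-like cells.

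Across the 8 classes, 48 of the 80 pairs of a gene and a class were measured, meaning that the mean of both CPM values was worth at least 10 UMIs in the smaller sum. Of these, 9 pairs were at least 2-fold above the median gene in the explosion library and 16 at least 2-fold below it. On plain CPM, without centring, 16 were above and 11 below, and the share of all genes past 2-fold without centring is not given. In monocyte-like cells 9 were measured, with Il1r2 above 2-fold and Il18 and Pycard below, where 12.5% of all measured genes were above and 17.4% below. In macrophage-like cells 9 were measured, with none above (12.2% of all genes) and Il18, Casp1 and Pycard below (18.1%). T-like cells had 7 measured, with Il1b and Il1rn above (11.8%) and Il18 and Pycard below (17.8%). NK-like cells had 4, with Il1b above (10.5%) and Il18 and Pycard below (15.4%), and B-like cells 4, with none above (11.7%) and Il18 and Pycard below (18.4%). Mesothelial-like cells had 7, with Il1b and Il1r1 above (13.9%) and Il18, Casp1 and Pycard below (20.5%). Ciliated-like cells had 3, with Il1b and Il1r1 above (13.6%) and Il18 below (24.3%), and secretory-like cells 5, with Il1b above (14.1%) and Il18 below (23.3%). The median over the measured genes of the 10 was between -1.11 (NK-like) and 1.33 (ciliated-like), where that of all genes is 0. By gene, Il18 was below 2-fold in 8 of 8 classes, Pycard in 6 of 7 and Casp1 in 2 of 6. Il1b was above the median gene in 8 of 8 classes and past 2-fold in 5, none of them myeloid. On plain CPM all measured Il1b and Il18 values kept these directions, whereas Pycard in secretory-like cells (8.31 and 12.1 CPM) was higher in the explosion library.

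**Figure D4:**
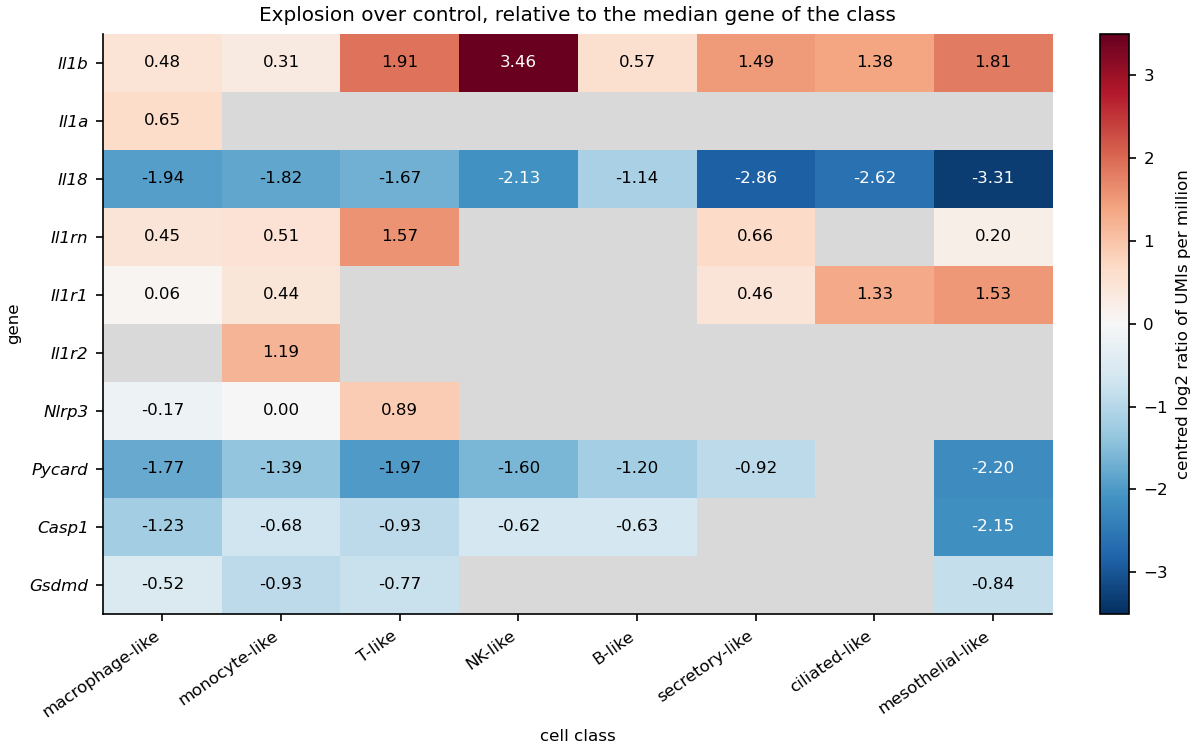
Log2 ratio of CPM, explosion over control, relative to the median gene of the class, for each gene (vertical axis) and compared class (horizontal axis); grey cells were not measured. Il18 and Pycard are blue (lower) wherever measured, from -3.31 to -0.92 (Pycard in secretory-like cells is higher on plain CPM), and Il1b is red (higher) throughout, from 0.31 in monocyte-like to 3.46 in NK-like cells.

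The Il1b differences outside the myeloid cells were large as ratios and small as levels. NK-like cells had 7.50 CPM (2.75 to 16.3) in the control and 123 CPM (88.0 to 166) in the explosion library, T-like cells 14.6 CPM (10.5 to 19.9) and 88.9 CPM (68.3 to 114) and mesothelial-like cells 15.8 CPM (11.5 to 21.2) and 78.7 CPM (61.1 to 99.7). Over the 6 lymphoid and structural classes the explosion levels spanned 54.5 to 123 CPM, far below the 1591 and 2048 CPM of the monocyte groups. The highest Il1b count of a single explosion cell was 1 in B-like, 2 in NK- and in mesothelial-like, 3 in ciliated-like, 5 in T-like and 7 in secretory-like cells, and 9 in monocyte-like cells. In control B-like cells 1 cell held 43.1% of the 51 Il1b UMIs. The sum of the monocyte markers was also higher in the compared structural classes of the explosion library. The 16 markers summed to 92.7 CPM in control and 479.8 CPM in explosion secretory-like cells, 149 and 473 CPM in ciliated-like cells, and 258 and 570.3 CPM in mesothelial-like cells, with 13 to 15 of them seen in these classes of the explosion library. F13a1, Cx3cr1, Ace and Eno3 were at 0 in some of these. The leading marker of the explosion sum was Nr4a1 in secretory-like (36.6% of the sum) and mesothelial-like cells (26.8%). In ciliated-like cells it was Plac8 (22.1%). A sum led by 1 gene does not by itself show monocyte RNA. Per 100 monocyte-marker UMIs, the explosion library gave 15.5 (14.9 to 16.1) Il1b UMIs in monocyte-like, 14.1 (8.47 to 22.3) in ciliated-like, 13.8 (10.5 to 17.8) in mesothelial-like and 11.4 (8.42 to 15.1) in secretory-like cells. The interval took in the monocyte value in 2 of the 6 classes in the explosion library and in 0 in the control. In T-, B- and NK-like cells of the explosion library the ratio was 3.42 to 6.32. There the leading marker was Plac8 in T-like (46.4% of the sum) and B-like cells (44.3%) and Spn in NK-like cells (33.6%). In the control it was Plac8 in all of them, at 76.8%, 74.5% and 33.1%. A low ratio in these classes therefore does not by itself show a lack of monocyte RNA. The part of monocyte RNA in the Il1b of these classes was not tested.

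Of 35 further genes of the pathway (other cytokines, receptors, adaptors, sensors, caspases and pore proteins), 22 were measured in monocyte-like cells. Of these, 6 were at least 2-fold above the median gene and 0 below, against 12.5% and 17.4% of all genes. The largest differences were in Naip6, a sensor of bacterial proteins, with 42.7 CPM in the control and 193 CPM in the explosion library (1.71, 1.40 to 2.05 relative to the median gene), and in Mefv, the gene of the sensor pyrin, with 70.1 and 306 CPM (1.66, 1.42 to 1.92). The lowest were Il36b (-0.84, -1.50 to -0.23) and Irak4 (-0.63, -1.32 to 0.02). Named after their values were seen, the others above 2-fold were Nlrc4, the partner of NAIP proteins, with 19.3 and 78.0 CPM (1.54, 1.07 to 2.06), Il18rap, Irak3 and the DNA sensor Aim2. Mefv, Naip6 and Nlrc4 were also above 2-fold in the Pou2f2-led group (13.2% of all genes) and in the Fcnb-led group (12.4%) taken alone. Nlrp3, by contrast, stood at 0.00 (-0.22 to 0.21) in monocyte-like cells.

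In macrophage-like cells 24 of the 35 were measured, with 3 above and 2 below 2-fold, against 12.2% and 18.1% of all genes. The highest were Il36rn, the antagonist of the interleukin 36 receptor (27 control and 19 explosion UMIs, 3.51, 2.57 to 4.40), and Mefv (44 and 20 UMIs, 2.89, 2.03 to 3.67). The lowest were Il33 (-1.50, -1.97 to -1.10) and Il18bp (-1.04, -1.62 to -0.56), which encodes a soluble inhibitor of interleukin 18. In T-like cells 17 were measured, with 3 above (11.8% of all genes) and 0 below (17.8%). The highest was Il1rl1, the receptor for interleukin 33, with 41.4 CPM in the control and 567 CPM in the explosion library (3.08, 2.78 to 3.40). The next was Naip6 (1.62, 0.58 to 2.71). At Leiden resolution 2 the T-like class had Il1rl1 at only 10.0 CPM (6.56 to 14.7) in the control and 100 CPM (76.7 to 129) in the explosion library. Cells named type 2 innate lymphoid-like at that resolution had 511 and 3193 CPM. In mesothelial-like cells 13 were measured, with 1 above (13.9% of all genes) and 3 below (20.5%). Txnip was above (1.31, 1.19 to 1.43), and the lowest were Ninj1 (-1.40, -1.91 to -0.96) and Nlrp1a (-1.33, -2.00 to -0.76). B-like cells had 1 of 9 above (11.7% of all genes), NK-like cells 1 of 11 (10.5%), ciliated-like cells 0 of 3 (13.6%) and secretory-like cells 0 of 10 (14.1%). In each of these 0 were below, against 18.4%, 15.4%, 24.3% and 23.3% of all genes. In macrophage-, B- and NK-like cells the counts above 2-fold lay near the share of all genes. The median over the measured pathway genes was between 0.04 and 0.59 in the 8 classes, where that of all measured genes is 0 by construction.

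The genes most like each of the 10 in level were found by Pearson correlation of log2(CPM + 10) over 23 sums of a class in a library, among 12659 genes. These sums share the 2 libraries, their depth and the cell classes, so the values are a description. Il1b was most like Lilrb1, Lilrb3a and Tlr2 (0.94, 0.94 and 0.93), Il1a most like Siglec1, Adap2 and Dram2 (0.92, 0.91 and 0.90), and Il18 most like Ap2s1, Tmem14c and Ciao2a (0.94, 0.93 and 0.93). Il1rn was most like Lrrc25, Slc11a1 and Fcgr1a (0.94, 0.94 and 0.93). Among the receptors, Il1r1 was most like Yap1, Yes1 and Tns2 (0.94, 0.93 and 0.93) and Il1r2 most like Pglyrp1, Clec4d and the neutrophil gene S100a9 (0.86, 0.86 and 0.85). Nlrp3 was most like Apobec1, Il36b and C5ar1 (0.95, 0.95 and 0.94), and Pycard most like Psmb8, Cuedc2 and Coro1a (0.91, 0.91 and 0.91). Casp1 was most like Glrx, S100a4 and Msn (0.91, 0.90 and 0.89) and Gsdmd most like Eif1a, Vnn1 and Aldh3a2 (0.84, 0.82 and 0.81).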

How the data were processed

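The deposited matrices hold whole UMI counts for each gene and cell barcode, with no normalization, and were written by cellranger 7.1.0 per the file headers. Per the submitters' processing notes, the tools included Cell Ranger 6.1.1 and bcl2fastq 2.20, and 2 builds, rn6 and mRatBN7.2, appear there with no role. No source used here gives the counting annotation.

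Barcodes with at least 200 genes and at most 25% mitochondrial UMIs were kept, and doublets called by Scrublet in each library (1853 control, 597 explosion) were removed. Cells were clustered with scanpy 1.11.5 (2000 variable genes, without the genes described and the pathway list; 30 components, 15 neighbours, Leiden at resolution 1). Clusters were named from 243 markers of 25 classes, with at least 3 detected, by a rule settled after the clusters were seen. UMIs were summed per class and library. Intervals are exact Poisson (levels), exact conditional (ratios) or Clopper-Pearson (shares), at 95%. Log2 ratios had 0.5 counts added, and their calculation was tested on simulated data. The libraries shared 85 barcodes, 69 of them kept in each. With 1 library a group no test was made.

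The genes and lists were chosen with earlier results of these data known. Named were the 10 genes, the 2 highest and 2 lowest measured pathway genes per class, and the 3 genes most like each of the 10. The alternatives were other depths, filters, scalings and clusterings, and leaving out barcodes of both libraries, which was chosen after seeing the data.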

Additional observations from a re-analysis of the deposited data

How the results depend on the processing

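Pairs of a gene and a class at least 2-fold above the median gene numbered 9 of 48. They numbered 5 of 30 with cells thinned to 500 UMIs, 4 of 29 when measured meant 30 UMIs, 14 of 70 when it meant 1 UMI, 16 of 48 on plain CPM, and 14 of 49 on totals without Scgb1a1, ribosomal protein, mitochondrial and Rn45s UMIs. The first 2 of these settings left fewer pairs measured and the third more. Plain CPM leaves out the subtraction of the class median, 0.46 (monocyte-like) to 1.52 (secretory-like), so each value lies higher by that amount. For the totals without those UMIs the cause was not tested. Pairs at least 2-fold below numbered 16, and 11 to 24 under the 11 alternatives. The share of all genes past 2-fold under each alternative is not given, so these counts alone are not a result about these genes. Of the values past 2-fold, Il1rn in T-like cells alone changed sign, to -0.43 with called doublets kept, and the cause was not tested. Keeping doublets and Leiden resolution 2 used new clusters. Leaving out barcodes of both libraries, chosen after seeing the data, gave 9 above and 16 below.

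No paired analysis was possible because each group has 1 library. The explosion library, with a median of 532 UMIs per kept cell against 4677, limits what can be seen of the sparse genes Il1a, Il1r2 and Gsdmd.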

Other observations

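At Leiden resolution 2 the Fcnb-led cells divided into monocyte-like cells (145 control and 727 explosion) and conventional dendritic-like cells (164 and 214). In the dendritic-like cells Il1b stood at 501 CPM (447 to 559) in the control and 859.7 CPM (730.5 to 1005) in the explosion library. Il1rn stood at 126 CPM (93.8 to 167) and 292 CPM (246 to 345) in the monocyte-like cells, whose intervals did not overlap, and at 63.0 CPM (45.0 to 85.8) and 65.7 CPM (34.0 to 115) in the dendritic-like cells, whose intervals did. Il18 in the dendritic-like cells stood at 395 CPM (348 to 447) and 230.0 CPM (166 to 311), above the monocyte-like cells in both libraries. Il1r2, the decoy receptor, stood there at 25.2 CPM (14.4 to 40.9) and 87.6 CPM (50.1 to 142). These classes were looked at after the data were seen.

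Some cells were named type 2 innate lymphoid-like at resolution 2 (122 control and 223 explosion cells). The name is tentative, because of its markers only Gata3, Rora and Hs3st1 were detected in these cells, beside 6 markers of T cells. Il1rl1, the receptor for interleukin 33, stood in this class at 511 CPM (423 to 611) in the control and 3193 CPM (2863 to 3549.9) in the explosion library. It had 118 and 342 UMIs in these cells, against 116 and 402 in the whole T-like class at resolution 1.

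Cells with and without an Il1b UMI were compared for Il1rn, Nlrp3, Pycard and Casp1 after thinning to 500 UMIs. Nlrp3 was seen in 14.1% (9.78% to 19.4%) of cells with Il1b and 5.83% (5.34% to 6.35%) of those without in control Mrc1- and Fabp4-led macrophage-like cells, and in 15.4% (8.21% to 25.3%) of cells with Il1b and 6.50% (5.35% to 7.82%) of those without in the explosion library. In Pou2f2-led monocyte-like cells it was seen in 9.30% (6.27% to 13.2%) of cells with Il1b and 4.60% (3.15% to 6.47%) of those without in the control, and in 9.19% (5.44% to 14.3%) of cells with Il1b and 4.55% (1.85% to 9.14%) of those without in the explosion library. In Fcnb-led cells the control values were 9.88% (4.36% to 18.5%) and 11.4% (7.59% to 16.3%). The Nlrp3 intervals were separate in the macrophage-like cells of both libraries and overlapped in the monocyte-like groups. For Il1rn, Pycard and Casp1 the intervals overlapped in each of these groups in both libraries. Pycard in control Pou2f2-led cells was seen less with Il1b, at 33.2% (27.9% to 38.9%), than without, at 42.4% (38.7% to 46.3%).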
